A study of Mus musculus with 6 samples.

Results

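Of the many genes for chemokines, 8 that T cells can transcribe were followed in regulatory T cells (Tregs) taken from lung tumors: Ccl1, Ccl3, Ccl4, Ccl5, Ccl20, Ccl22, Xcl1 and Cxcl10. They were chosen by gene symbol, and 8 of 8 were found among the 15319 genes listed. The measurement was bulk RNA-Seq of sorted tumor-infiltrating Tregs, 3 libraries per group, in a study of Ku70, the product of Xrcc6 and a subunit of the Ku heterodimer that binds broken DNA ends. The WT group came from Foxp3Yfp-Cre mice and the cKO group from Xrcc6flox/floxFoxp3Yfp-Cre mice, so that both groups carried the same Cre, which is expressed from the Foxp3 locus together with a yellow fluorescent protein and acts in cells that express Foxp3. The mice were on the C57BL/6J background, were 8 to 10 weeks old and received Lewis lung carcinoma (LLC) cells, a mouse lung tumor line, through the tail vein. Tumors were excised on day 21. Whether each library was 1 animal or a pool is not stated, so that p-values measure the spread between these libraries, which may be partly technical.

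Chemokines are small secreted proteins that direct the movement of leukocytes along concentration gradients, and they are named by the spacing of their first cysteines (C, CC and CXC). Each binds one or several G protein-coupled receptors on the responding cell. CCL5 acts through receptors that include CCR1 and CCR3, CCL1 acts through CCR8, CCL20 through CCR6, CCL22 through CCR4, XCL1 through XCR1 and CXCL10 through CXCR3. T cells switch most of these genes on after antigen receptor stimulation, whereas Cxcl10 is best known as an interferon-induced gene of many cell types. Tregs in tumors are themselves often marked by CCR8 and CCR4 and are drawn in by the ligands of these receptors.

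Xrcc6, the targeted gene, was counted at 20.9, 63.1 and 23.8 CPM (counts scaled to a common library size) in WT replicates 1 to 3 and at 5.24, 3.51 and 4.18 CPM in cKO replicates 1 to 3, a log2 fold change of -3.06 (edgeR, unadjusted p = 0.000306, adjusted p = 0.984) and, without WT replicate 2, of -2.38 (edgeR adjusted p = 0.0196). By DESeq2 over all 6 libraries the adjusted p of Xrcc6 was 1.22e-05. The edgeR adjusted p with all libraries thus missed even the targeted gene, which limits what a member not passing it can mean. Total counts ranged from 19032620 to 23159815, so that 3 counts, the upper limit that a count of 0 allows, corresponded to 0.133 to 0.156 CPM. WT replicate 2 stood apart, with counts in 11513 genes against 14442 to 14737 in the other 5 libraries, and the members are therefore described with and without it. The 6 Treg and T cell markers summed to 3596 to 4401 CPM in WT and 3682 to 3969.8 CPM in cKO, led by Ctla4, Cd3e and Cd4, with Foxp3 at 150.4 to 241 CPM in WT and 189 to 282 CPM in cKO. Summed CPM over 14 macrophage and dendritic cell markers ran from 693 to 1404 in WT and from 702 to 1985 in cKO, led by Cd74, Lyz2 and H2-Aa. Of these 14 genes 12 were fitted higher in cKO, with a median log2 fold change of 0.65 (12 and 0.78 without WT replicate 2). The groups of 1, Itgax, did not overlap, with cKO higher, beside 5.01% of all genes. By edgeR 0 of the 14 passed an unadjusted p of 0.05. The sum over 9 CD8 T and NK cell markers ran from 86 to 754 in WT and from 294 to 481 in cKO. Nearly all of it was Nkg7. Cd8b1 ran from 5.22 to 18.5 CPM in WT and from 17.3 to 17.9 CPM in cKO, Cd8a did not exceed 2.6 CPM and Ncr1 was not listed. Of the 8 listed, 7 were fitted higher in cKO, with a median log2 fold change of 0.81 (5 and 0.33 without WT replicate 2), and 0 passed an unadjusted p of 0.05 by edgeR. Neutrophil, B cell and structural cell marker lists summed to at most 20.5, 48.3 and 178 CPM, led by Cxcr2, Cd79b and Pecam1. Marker genes with an unadjusted edgeR p under 0.05 were S100a9 and Retnlg of neutrophils and Pax5 of B cells, all higher in cKO and at no more than 1.91, 1.51 and 0.756 CPM. Over all genes 1.81% had such a p.

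None of the 8 chemokine genes passed the test of cKO against WT Tregs across all genes. The most negative fold change was that of the low-count gene Ccl20, which rested on 1 WT library, and the 1 gene whose groups did not overlap was Cxcl10, which was lower in cKO. By edgeR's quasi-likelihood test 0 of 8 members passed an adjusted p of 0.05, with adjusted p between 0.984 and 0.996, where 0% of the 15315 genes tested passed. At an unadjusted p under 0.05 there was 1 of 8 members, Cxcl10, beside 1.81% of all genes. DESeq2 also gave 0 members at its adjusted p and 1 at the unadjusted p, and limma-voom with quality weights gave 0 and 0. At the unadjusted p these 2 tools gave 307 and 543 of the 15315 genes. Without WT replicate 2, 0 members passed the adjusted p, beside 0.00654% of 15302 genes, that is Xrcc6 alone. At the unadjusted p there was again 1 member, now Xcl1, beside 3.01% of all genes. With all libraries 2 members had a higher and 6 a lower fitted level in cKO, with a median log2 fold change of -0.47 against 0.04 over all genes tested, and without WT replicate 2 the median was -0.32 against -0.01. Leaving out WT replicate 1 brought it to -0.08 against 0.11. In these bulk libraries, fewer cells making a chemokine and less of its RNA per cell cannot be told apart.

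**Figure D1:**
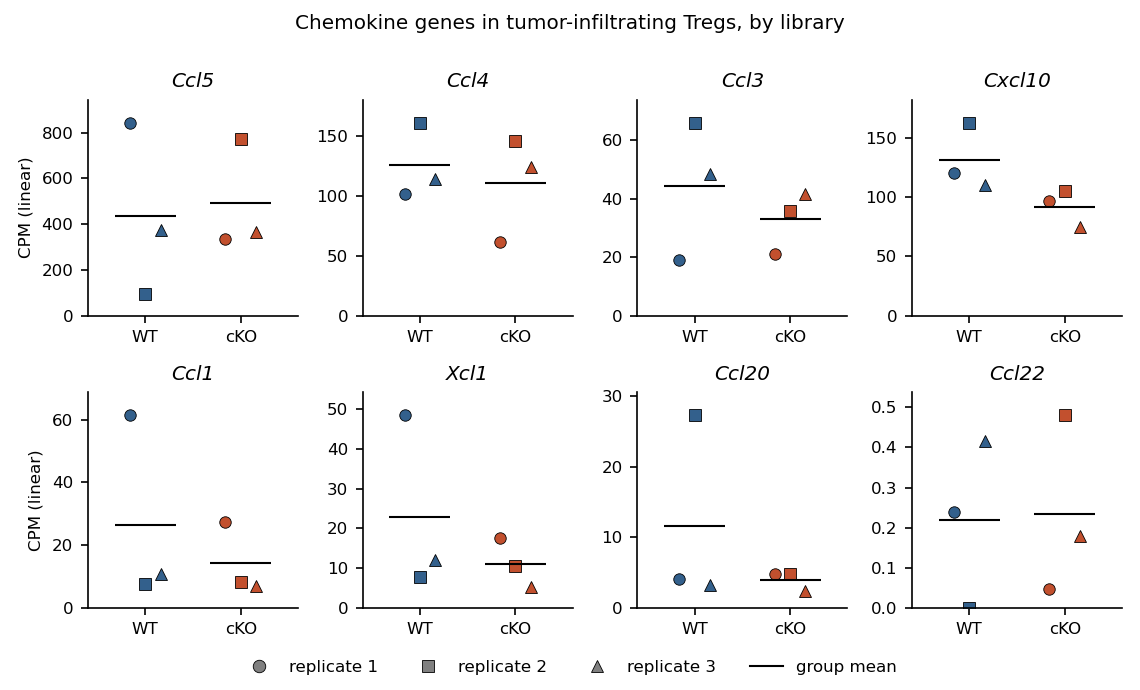
Level of each of the 8 chemokine genes in CPM (linear axis from 0, own scale per gene) in each of the 3 WT (blue) and 3 cKO (orange) libraries, with the group mean as a line. The groups overlap for 7 genes, and for Cxcl10 all 3 cKO libraries, at 75.1 to 105 CPM, lie below all 3 WT libraries, at 110.1 to 163 CPM.

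Levels of different genes were compared per length, as CPM per kb of the principal transcript. On that scale Ccl5 was the most abundant, with a mean level of 871 CPM per kb over the 6 libraries, followed by Ccl4 (179), Cxcl10 (102), Ccl3 (50.5), Ccl1 (39.7), Xcl1 (32.5), Ccl20 (9.81) and Ccl22 (0.102). Ccl5 alone made up 64.7% to 78.1% of the summed chemokine level in 5 libraries. In WT replicate 2 it made up 24.3%, and Ccl4 was the highest gene there with 34% of the sum. Adjacent genes in this order had overlapping ranges over the 6 libraries, with the exception of Ccl20 and Ccl22. Within a library, Ccl4 exceeded Cxcl10, Cxcl10 exceeded Ccl3 and Ccl20 exceeded Ccl22 in 6 of 6 libraries. Ccl5 exceeded Ccl4 and Xcl1 exceeded Ccl20 in 5 of 6, Ccl3 exceeded Ccl1 in 4 of 6 and Ccl1 exceeded Xcl1 in 3 of 6. The summed level varied within each group, from 717 to 2090.4 CPM per kb in WT and from 927 to 1855 in cKO.

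**Figure D2:**
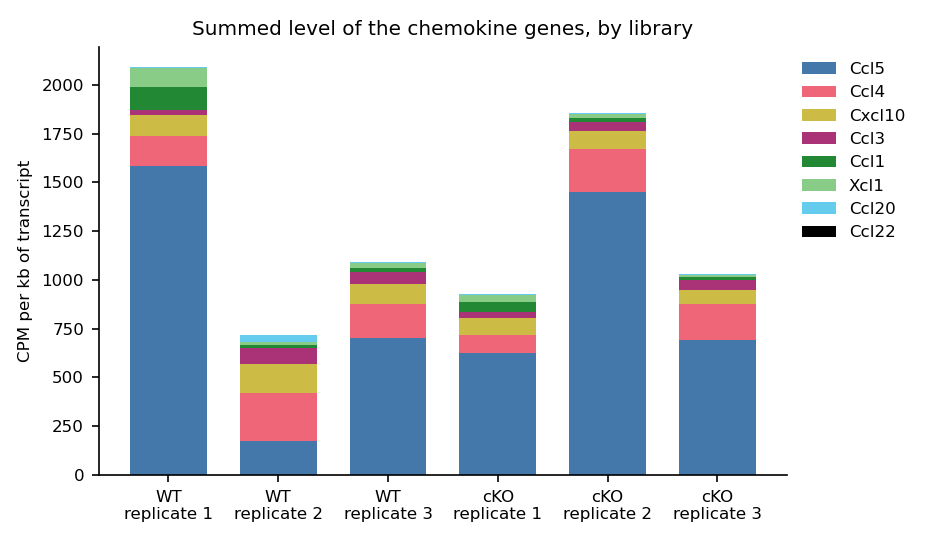
Stacked bars of the chemokine genes' levels in CPM per kb of transcript, 1 bar per library, starting at 0. Ccl5 (blue) fills most of every bar except that of WT replicate 2, where it is 24.3% of the sum, and the highest bars of the groups are WT replicate 1 and cKO replicate 2.

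Ccl5, the CC chemokine typical of effector and memory T cells, lies on chr11:83525778-83530518 (GRCm38, minus strand). It was measured at 842, 92.6 and 375 CPM in WT replicates 1 to 3 and at 333, 771 and 367 CPM in cKO replicates 1 to 3. One library in each group was high, WT replicate 2 was the lowest of all, and the groups overlapped. The means were 437 ± 379 CPM in WT and 490.3 ± 244 CPM in cKO (SD, n = 3), a log2 fold change of 0.17 with a standard error of 0.70 and a 95% interval from -1.48 to 1.81 (edgeR unadjusted p = 0.819). It was -0.31 without WT replicate 2, with an interval from -1.26 to 0.65. Leaving out cKO replicate 2 gave -0.32 and leaving out WT replicate 1 gave 1.07. The sign therefore turned with single libraries of either group, and the interval of the full set took in changes of more than 2-fold either way.

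The 3 genes whose library profile was most like that of Ccl5, among 8447 genes with a mean of at least 10 CPM, were Nkg7, Pglyrp1 and Ndufb2. Likeness was the root mean square difference of centred log2 levels over the 6 libraries, which was 0.204, 0.214 and 0.269. Nkg7, which encodes a cytotoxic granule protein, stood at 726, 80.7 and 268 CPM in WT and at 281, 452 and 263 CPM in cKO. Pglyrp1, a peptidoglycan recognition protein, ranged from 24.5 to 183 CPM, and Ndufb2, a subunit of respiratory complex I, from 6.72 to 60.2 CPM. All of them were highest in WT replicate 1 and lowest in WT replicate 2. Cd8b1 was also highest in WT replicate 1, at 18.5 CPM, and lowest in WT replicate 2, at 5.22 CPM. In cKO, however, Cd8b1 stayed at 17.3 to 17.9 CPM, without the peak of Ccl5 in replicate 2. Cd8a stayed at or below 2.6 CPM. All CD8 T and NK cell markers listed were lowest in WT replicate 2, but only Nkg7 and Cd8b1 were highest in WT replicate 1. Cd8a, Prf1, Gzmk, Klrk1 and Klrb1c had 0 counts in WT replicate 2. That library had counts in 11513 genes, against 14442 to 14737 in the others, so such low points are not particular to these markers. The part of other lymphocytes in the Ccl5 profile was not tested.

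Ccl4 and Ccl3 encode the related inflammatory chemokines MIP-1 beta and MIP-1 alpha, which attract monocytes and T cells. The genes are neighbours, with Ccl3 on chr11:83647844-83649355 (minus strand) and Ccl4 on chr11:83662584-83664683 (plus strand), 13.2 kb apart, and Ccl5 lies 117 kb from Ccl3 on the same chromosome. Ccl4 was measured at 102, 161 and 114 CPM in WT and at 61.4, 146 and 124 CPM in cKO. Only cKO replicate 1 lay below the WT range. The means of Ccl4, 126 ± 31.1 and 110.3 ± 43.7 CPM (SD, n = 3), gave a log2 fold change of -0.19 (standard error 0.33, 95% interval -0.95 to 0.58, edgeR unadjusted p = 0.584), and without WT replicate 2 it was 0.04 (interval -0.67 to 0.74). Among the members, Ccl4 was measured with the second narrowest interval.

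Ccl3 was measured at 19, 66 and 48.4 CPM in WT and at 21.1, 35.9 and 41.8 CPM in cKO. Replicate 1 was the lowest library of each group, and all 3 cKO values lay within the WT range. The log2 fold change of Ccl3 was -0.43 (standard error 0.45, 95% interval -1.49 to 0.62, edgeR unadjusted p = 0.366) and -0.03 without WT replicate 2 (interval -0.91 to 0.85). The log2 fold change depended as much on WT replicate 1: without that library it was -0.80 (edgeR unadjusted p = 0.0423, adjusted p = 0.677). In that set 874 of 15312 genes had an unadjusted edgeR p under 0.05. Per kb, Ccl4 exceeded Ccl3 in every library, by 2.74 to 6.21-fold in WT and by 3.38 to 4.71-fold in cKO.

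WT replicate 1 and cKO replicate 1, where Ccl3 was lowest, were also the libraries with the lowest macrophage and dendritic cell marker sums, 693 and 702 CPM against 1271 to 1985 CPM in the other 4. Lyz2, the lysozyme gene of macrophages and neutrophils, stood at 129 and 169.9 CPM in those libraries and at 323 to 625 CPM in the others. Zbtb46 of the same marker list was instead highest there, at 35 and 26.4 CPM. The part of myeloid RNA in the Ccl3 values was not tested. The genes with profiles most like that of Ccl4 were Rnf130, Ccs and Gpr34, at root mean square differences of 0.178, 0.193 and 0.209. Rnf130 encodes a RING finger protein, Ccs the copper chaperone of superoxide dismutase and Gpr34 a lysophospholipid receptor well known in microglia and macrophages, and they ranged from 9.56 to 22.7, from 37.5 to 70.3 and from 7.98 to 14.5 CPM. Against Ccl4 the difference of Ccl3 was 0.411, that of Cxcl10 was 0.448 and that of Ccl5 was 1.23. By this measure Ccl3 and Ccl4 were closer to each other than to Ccl5, from which Ccl3 differed by 1.54. The measure also grows with the spread of either gene, and Ccl5 had an SD of log2 levels of 1.61 in WT against 0.34 for Ccl4. Cxcl10, on another chromosome, stood at nearly the same difference from Ccl4 as Ccl3 did, but varied little itself (SDs 0.29 in WT and 0.25 in cKO). The values of Ccl5 and Cxcl10 therefore do not rank how far these genes varied together with Ccl4.

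Ccl1, the ligand of CCR8 made by activated T cells, and Xcl1, lymphotactin, the attractant of cross-presenting dendritic cells that carry XCR1, had the most similar profiles of any pair among the 6 members with a mean of at least 10 CPM, with a root mean square difference of 0.335. Their promoters are shown for this reason, beside that of Cxcl10, the gene whose groups did not overlap. The sequences are the 250 bases before the RefSeq start on GRCm38.p6, 5′ to 3′ on the gene's own strand: chr11:82179813-82180062 (minus) for Ccl1, chr1:164935523-164935772 (minus) for Xcl1 and chr5:92348890-92349139 (minus) for Cxcl10. Capitals mark matches on either strand to an interferon response element (GAAANNGAAA), AP-1 (TGANTCA), a forkhead site or a TATA box. They also mark NF-kB matches, which were searched on the gene's own strand only, so that sites in the other orientation were missed.
Ccl1: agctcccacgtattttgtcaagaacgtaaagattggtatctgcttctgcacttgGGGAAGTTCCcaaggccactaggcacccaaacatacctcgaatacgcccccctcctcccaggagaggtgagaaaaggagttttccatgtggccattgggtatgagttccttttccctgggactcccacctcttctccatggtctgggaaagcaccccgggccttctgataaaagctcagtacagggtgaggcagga
Xcl1: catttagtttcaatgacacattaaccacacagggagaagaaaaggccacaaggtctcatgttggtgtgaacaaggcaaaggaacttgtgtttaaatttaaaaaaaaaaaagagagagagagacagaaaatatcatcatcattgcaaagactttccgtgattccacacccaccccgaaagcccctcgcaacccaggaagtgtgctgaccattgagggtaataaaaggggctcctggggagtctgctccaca
Cxcl10: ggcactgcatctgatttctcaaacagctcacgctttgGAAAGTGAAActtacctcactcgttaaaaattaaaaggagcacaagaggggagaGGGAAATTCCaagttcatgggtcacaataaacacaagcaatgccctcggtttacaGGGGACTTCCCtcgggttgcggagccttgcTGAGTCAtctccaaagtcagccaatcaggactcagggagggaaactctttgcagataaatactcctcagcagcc
The Cxcl10 window held GAAAGTGAAA at positions -213 to -204 from the start, NF-kB matches at -159 to -150 and, as a pair of overlapping matches, at -104 to -94, and TGAGTCA at -74 to -68. The Ccl1 window held 1 NF-kB match, GGGAAGTTCC, at -196 to -187, and the Xcl1 window held none of these motifs. Across all 32851 RefSeq promoters searched in the same way, 3.0% held the interferon response element, 6.7% AP-1, 3.2% the forkhead letters and 5.0% NF-kB. The forkhead letters were TGTTTAC. The TATA box letters, TATAAA, were held by 12.4%. Of the 6 members with an entry, the interferon element and AP-1 were each found in 1, NF-kB on the gene's own strand in 2 and the others in 0. The NFAT core GGAAA, not capitalised and overlapping some matches of NF-kB and of the interferon element, was found in 5 of 6 members and 55.6% of all promoters. Ccl4 and Ccl5 are named only. A match describes the letters and is not evidence of binding.

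Ccl1 (chr11:82176657-82305690, minus strand in GENCODE, a long model) was measured at 61.4, 7.61 and 10.7 CPM in WT and at 27.3, 8.36 and 7.07 CPM in cKO. Replicate 1 was the highest library in each group, and WT replicate 1 exceeded the next highest library 2.25-fold. The means were 26.6 ± 30.2 and 14.3 ± 11.3 CPM (SD, n = 3), and the log2 fold change was -0.90 (standard error 0.87, 95% interval -2.93 to 1.14, edgeR unadjusted p = 0.334). Leaving out WT replicate 2 gave -1.35 (interval -2.94 to 0.24, edgeR unadjusted p = 0.0862), whereas leaving out WT replicate 1 gave 0.64, so that the direction rested on 1 library.

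Xcl1 (chr1:164931644-164935527, minus strand, overlapped on the plus strand by the noncoding gene Gm20743) was measured at 48.5, 7.75 and 12.1 CPM in WT and at 17.5, 10.6 and 5.38 CPM in cKO. WT replicate 1 again stood out, 2.77-fold above the next highest library. The log2 fold change of Xcl1 was -1.03 (standard error 0.73, 95% interval -2.74 to 0.68, edgeR unadjusted p = 0.199). In the set without WT replicate 2 it was -1.45, with an interval from -2.71 to -0.19 (edgeR unadjusted p = 0.029, adjusted p = 0.997, DESeq2 unadjusted p = 0.102), and the groups still overlapped. Without WT replicate 1 it was 0.17. The ratio of Ccl1 to Xcl1 per kb stayed between 0.801 and 1.59 in the 6 libraries while each gene varied 8.69-fold and 9.02-fold between its lowest and highest library. The libraries with the most Ccl1 and Xcl1, replicate 1 of each group, were those with the lowest macrophage and dendritic cell marker sums, led by Cd74, Lyz2 and H2-Aa. Zbtb46, a dendritic cell marker of that list, went the other way. It was highest in those libraries, at 35 CPM in WT and 26.4 CPM in cKO, against 7.61 to 18.1 CPM in the others. These relations were not tested.

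**Figure D3:**
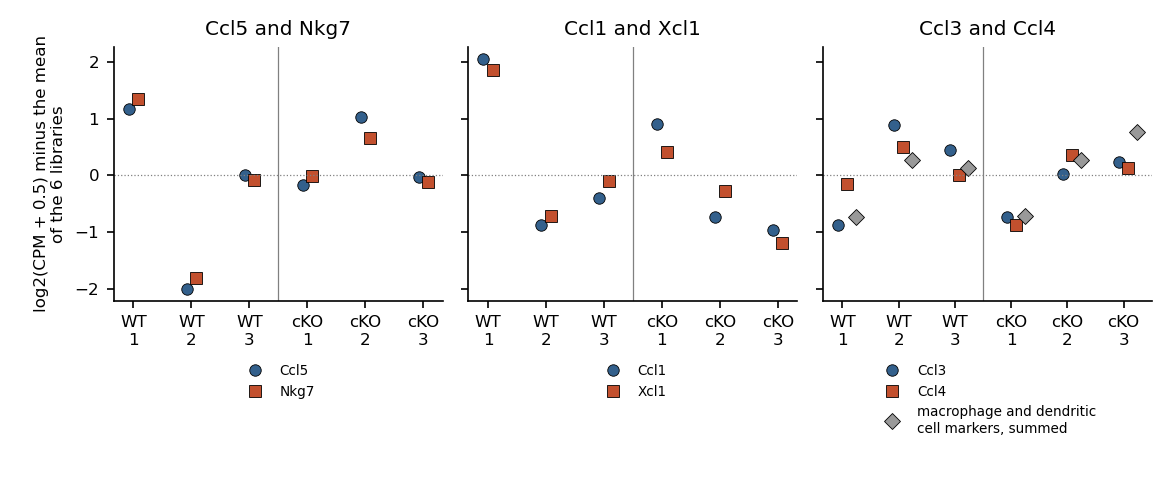
Centred log2(CPM + 0.5) of Ccl5 with Nkg7, of Ccl1 with Xcl1 and of Ccl3 with Ccl4 and the summed macrophage and dendritic cell markers (Ccl3 and Ccl4 panel only), 1 point per library and gene. Ccl5 and Nkg7 share their low point in WT replicate 2, Ccl1 and Xcl1 their high point in WT replicate 1, and Ccl3 and the marker sum are low in replicate 1 of both groups.

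Cxcl10, the CXCR3 ligand that attracts activated T cells, lies on chr5:92346638-92348889 (minus strand) inside the span of Art3, which is on the plus strand and was listed at 0 to 1.2 CPM. The strand used in counting is not stated. Cxcl10 was measured at 121, 163 and 110.1 CPM in WT and at 96.7, 105 and 75.1 CPM in cKO. Every cKO library lay below every WT library, with a gap between the nearest pair of 110.1 and 105 CPM. The means were 131 ± 27.9 and 92.2 ± 15.4 CPM (SD, n = 3), a 0.702-fold level in cKO and a log2 fold change of -0.51 with a standard error of 0.20 and a 95% interval from -0.98 to -0.04. The edgeR p was 0.0382 before and 0.984 after adjustment, and DESeq2 gave 0.0348 and 0.999. Permuting the library labels exactly (two-sided) gave p = 0.1, which is as low as 3 libraries against 3 can reach. Groups with cKO below WT and no overlap were found for 1 of 8 members and 3.23% of all genes, and groups with cKO above WT for 0 of 8 and 5.01%.

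Without WT replicate 2 the Cxcl10 groups still did not overlap and the log2 fold change was -0.33 (standard error 0.16, 95% interval -0.70 to 0.05), a 0.798-fold level (edgeR unadjusted p = 0.0791). In that set 7.53% of all genes were without overlap and lower and 8.48% without overlap and higher in cKO, beside 1 and 0 of 8 members. The unadjusted p of Cxcl10 also rose above 0.05 without cKO replicate 1 (edgeR, 0.0717) and without cKO replicate 3 (edgeR, 0.141). Cxcl10 was the least variable member, with SDs of log2 levels of 0.29 in WT and 0.25 in cKO. The medians of 8447 genes were 0.34 and 0.14. By contrast, Ccl1, Ccl5 and Xcl1 had SDs of 1.58, 1.61 and 1.34 in WT, above 96.8% or more of those genes, and of 1.03, 0.66 and 0.81 in cKO. Of 12 interferon-induced genes 11 were listed, of which 5 were fitted higher and 6 lower in cKO with a median log2 fold change of 0.00 (-0.04 without WT replicate 2), and 0 passed an adjusted or an unadjusted p of 0.05 by edgeR, DESeq2 or limma-voom. Irf1 and Irf7, transcription factors induced by interferons, had log2 fold changes of 0.07 and -0.01 with 95% intervals from -0.35 to 0.49 and from -0.45 to 0.43. The lowest and highest of the list were -0.52 for Rsad2 and 0.50 for Gbp2. Ifng, a cytokine gene named after its values were seen, was at -0.48 (95% interval -1.06 to 0.10) and -0.52 without WT replicate 2. Its relation to Cxcl10 was not tested.

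**Figure D4:**
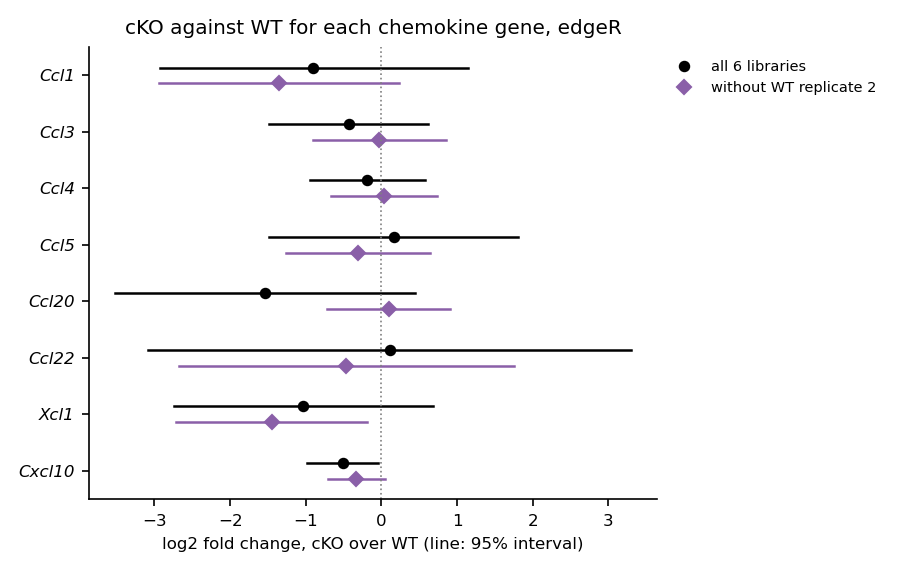
Log2 fold change of each chemokine gene, cKO over WT, with its 95% interval from edgeR, over all 6 libraries (black circles) and without WT replicate 2 (purple diamonds). The interval of Cxcl10 excludes 0 with all libraries and not without WT replicate 2, that of Xcl1 the other way round, and Ccl4, Ccl5, Ccl20 and Ccl22 change sign between the sets.

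Ccl20 (chr1:83116766-83119167, plus strand), the ligand of CCR6 associated with Th17 cells and mucosal surfaces, was a low-level gene, at 4.16, 27.3 and 3.28 CPM in WT and at 4.78, 4.76 and 2.45 CPM in cKO. WT replicate 2 was 5.71-fold above the next highest library, and the other 5 overlapped. The log2 fold change of -1.54 (standard error 0.85, 95% interval -3.52 to 0.45, edgeR unadjusted p = 0.112) became 0.10 without that library (interval -0.72 to 0.91, edgeR unadjusted p = 0.791). Il17a, the defining cytokine of Th17 cells, named after its values were seen, was also highest in WT replicate 2, at 28.6 CPM against 1.39 to 6.98 CPM elsewhere. Il22, of the same list of T cell cytokines, had 0 counts in WT replicate 2 and did not exceed 0.712 CPM in any library. Whether Ccl20 and Il17a came from the same cells was not tested.

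Ccl22 (chr8:94745590-94751699, plus strand), a ligand of CCR4 made mainly by dendritic cells and macrophages, was close to the detection limit, with 5, 0 and 8 counts in WT and 1, 10 and 4 counts in cKO. The highest library reached 0.48 CPM. The log2 fold change of 0.11 had a 95% interval from -3.09 to 3.30, so that a difference was not detectable at this depth. Without WT replicate 2 it was -0.47.

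The receptors of these chemokines were counted in the same Treg libraries. Of 8 receptor genes, 0 passed an adjusted or an unadjusted p of 0.05 by edgeR, DESeq2 or limma-voom with all libraries, and 5 were fitted higher and 3 lower in cKO, with a median log2 fold change of 0.28 that became 0.01 without WT replicate 2. Ccr8, the receptor of CCL1 and a marker of tumor Tregs, was the most abundant at 1122, 436 and 586 CPM in WT and 711, 641 and 481 CPM in cKO. Like Ccl5, it was highest in WT replicate 1 and lowest in WT replicate 2, and the groups overlapped. Its log2 fold change was -0.23 (95% interval -1.06 to 0.61, edgeR unadjusted p = 0.549), and -0.48 in the set without WT replicate 2.

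Cxcr3, the receptor of CXCL10, was measured at 282, 92.5 and 190.1 CPM in WT and at 203, 330.5 and 256 CPM in cKO, with a log2 fold change of 0.48 (95% interval -0.42 to 1.38, edgeR unadjusted p = 0.251). Ccr4, the receptor of CCL22, was measured at 241, 149 and 204 CPM in WT and at 233, 257 and 200.5 CPM in cKO. Both were lowest in WT replicate 2, without which their log2 fold changes were 0.16 and 0.05. Ccr6, the receptor of CCL20, stood at 136, 147 and 98.9 CPM in WT and at 122, 75 and 72.2 CPM in cKO. It had the smallest p of the 8 (log2 fold change -0.50, 95% interval -1.09 to 0.09, edgeR unadjusted p = 0.0851), and cKO replicate 1 lay inside the WT range.

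Ccr1 did not exceed 13.7 CPM and Ccr3 did not exceed 9.52 CPM. The Ccr3 groups did not overlap, with cKO higher, beside 5.01% of all genes (log2 fold change 0.66, 95% interval -0.68 to 2.01, edgeR unadjusted p = 0.284). Xcr1, a dendritic cell receptor, was at 13.1, 0.846 and 7.61 CPM in WT and at 7.33, 6.92 and 4.4 CPM in cKO. When WT replicate 2 was left out, Xcr1 was lower in cKO without overlap, beside 7.53% of all genes. Its log2 fold change was then -0.74 (edgeR unadjusted p = 0.0382, adjusted p = 0.997). In that set 3.01% of all genes had an unadjusted edgeR p under 0.05. The sign of the Xcr1 change was the same with all libraries, at -0.21.

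Of 30 other chemokine ligand genes 25 had counts, and Ccl11, Ccl19, Ccl26, Ccl28 and Cxcl11 were not listed. By edgeR 0 passed the adjusted p and 1 the unadjusted p, beside 1.81% of all genes. It was Ccl21a, a lymphoid tissue chemokine without a count in WT and with 6, 0 and 14 counts in the cKO libraries (DESeq2 unadjusted p = 0.171). Without WT replicate 2, Ccl9, a myeloid chemokine, was added, beside 3.01% of all genes. It stood at 3.2 and 10 CPM in WT and 10.7, 12.8 and 20.3 CPM in cKO (edgeR unadjusted p = 0.0317), while WT replicate 2 itself stood at 24.9 CPM. The median log2 fold change of the 25 was 0.22 in both sets. The most abundant were the myeloid chemokines Cxcl2, at 73.8 to 150.2 CPM, Ccl6, at 11.9 to 85.4 CPM, and Ccl7, at 2.2 to 46.6 CPM. Ccl6 and Ccl7 were lowest in replicate 1 of each group, as Ccl3 and the macrophage and dendritic cell marker sum were.

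Cytokine genes of activated T cells that are often transcribed with these chemokines gave 0 of 14 at the adjusted p by edgeR, DESeq2 and limma-voom. At an unadjusted p under 0.05 by edgeR there was 1, Lta, which encodes lymphotoxin alpha, beside 1.81% of all genes. Lta was measured at 40.2, 69.4 and 43.8 CPM in WT and at 34.4, 31 and 27.8 CPM in cKO, with no overlap, and its log2 fold change was -0.72 (standard error 0.24, 95% interval -1.28 to -0.16, edgeR unadjusted p = 0.0183, adjusted p = 0.984). Without WT replicate 2 it was -0.44 (edgeR unadjusted p = 0.0119). Il4, the type 2 cytokine, joined it there (edgeR unadjusted p = 0.0386) at no more than 2.76 CPM, beside 3.01% of all genes. With all libraries the Il4 groups did not overlap either, with cKO lower. Among all genes 3.23% were likewise lower without overlap. Of the 14 genes 5 were fitted higher and 9 lower in cKO, with a median log2 fold change of -0.24, and 3 and 11 without WT replicate 2, with a median of -0.31. The most abundant, Ltb, Tnfsf8 and Il10, ranged from 391 to 721, from 198 to 328 and from 108 to 182 CPM. Their log2 fold changes were 0.10, -0.16 and -0.31, each with a 95% interval that included 0.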

How the data were processed

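Per the labels and methods, RNA of sorted tumor-infiltrating Tregs was made into libraries with a SMARTer kit and sequenced on a BGI-Seq500 in paired ends of 150 bases against GRCm38. The submitters' processing notes name Bowtie2 2.3.4.3 and RSEM 1.3.1. The deposited values were the authors' expected counts for each gene symbol, without normalization, of which 21.65% of values were not whole (0 of the 8 members). These were rounded here, scaled by TMM and tested with edgeR 4.0.16 (quasi-likelihood, cKO against WT, genes with at least 1 count, Benjamini-Hochberg over all 15315). Standard errors and 95% intervals came from the log2 fold change and its F statistic. CPM used TMM-scaled library sizes, and CPM per kb the GENCODE vM21 principal transcript. Exact permutation tests were two-sided. Likeness used log2(CPM + 0.5). Replicates differed beyond sampling noise.

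The members and gene lists were chosen with earlier results of these data known. Named were the members, Xrcc6, the receptors, the 3 most abundant genes of each other list with up to 3 at an unadjusted p under 0.05, and the 3 genes most like Ccl5 and Ccl4. A few genes that this rule would name are counted in their lists but not reported here. Alternatives were DESeq2 1.42.0, limma-voom 3.58.1 with quality weights, other scaling, filterByExpr, a replicate block and leaving out each library. A DESeq2 fit that left out WT replicate 2 was chosen after the data were seen. The scripts were tested on simulated data. RefSeq promoters (GRCm38.p6) matched 6 of 8 members. Cre specificity, sorting purity and the strand of counting were not analysed here. Detection limits cover counting error only, and reads carry no molecular identifiers. Ranges are the lowest and highest library values, so they also hold the differences between libraries.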

Additional observations from a re-analysis of the deposited data

How the results depend on the processing

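Calls across all genes at an adjusted p numbered 0, and 2 with DESeq2, 3 with DESeq2 without WT replicate 2 and 0 to 1 when 1 library was left out. At an unadjusted p there were 277 genes, against 140 with filterByExpr, 543 with limma-voom, 85 with the replicate block, and 65 (without cKO replicate 3) to 874 (without WT replicate 1) when 1 library was left out. For the members the count at an unadjusted p was 1, 0 with limma-voom, 0 with DESeq2 without WT replicate 2 and 0 to 2 in leave-outs, where Ccl3 was added without WT replicate 1 and Ccl20 without WT replicate 3. In those sets 874 and 575 of all genes had such a p. No alternative put a member past the adjusted p. The members' median log2 fold change of -0.47 was -0.27 with limma-voom and -0.62 to -0.08 in leave-outs.

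Cxcl10 and Ccl3 were fitted lower in cKO under all 13 alternatives, from -0.62 to -0.33 and from -0.80 to -0.02 (log2). Over the fits that left out 1 library, the lowest and highest values were -1.78 and 0.64 for Ccl1 and -1.51 and 0.17 for Xcl1. For Ccl4 they were -0.44 and 0.10, for Ccl5 -0.32 and 1.07, for Ccl20 -1.97 and 0.10 and for Ccl22 -0.92 and 0.95. Ccl4 turned to 0.03 and Ccl5 to -0.02 with limma-voom, and Ccl22 to -0.57. DESeq2 without WT replicate 2 gave 0.03 for Ccl4, -0.31 for Ccl5, 0.10 for Ccl20 and -0.48 for Ccl22. The causes were not tested. Ccl22 was not tested under filterByExpr. Over 8447 genes, same-numbered libraries did not deviate together (correlations -0.0121, -0.214 and 0.199), and the numbers were not taken as pairs. These correlations do not cover the members alone. The block lowered the standard error of Ccl1 from 0.87 to 0.34, of Ccl3 from 0.45 to 0.26 and of Ccl4 from 0.33 to 0.22. That of Xcl1 fell from 0.73 to 0.47, of Ccl20 from 0.85 to 0.71 and of Cxcl10 from 0.20 to 0.17. For Ccl5 and Ccl22 it rose, from 0.70 to 0.88 and from 1.37 to 1.54. The block gave -0.02 for Ccl22 and -0.50 for Cxcl10. The median of all genes moved by over 0.1 in no scaling and reached 0.11 without WT replicate 1. With 3 libraries a group, intervals of Ccl1, Ccl5, Ccl20, Ccl22 and Xcl1 span more than 3 log2 units.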
